A study of Mus musculus with 46 samples.

Results

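The tumours described here are the hSS2 pieces that held the most and the least skeletal muscle message. All 37 hSS2 libraries were ranked by Ttn, which encodes the giant sarcomere spring titin, in CPM (counts scaled to a common library total), and the 12 highest (muscle-rich) were set against the 12 lowest (muscle-poor). These 24 of 37 hSS2 libraries, and of 46 libraries in the series, were therefore chosen by a measured level. Genes of the muscle fibre that separate them restate the choice, and every difference between the 2 ends is given as a description.

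The study sequenced RNA from frozen tumour pieces of mice that carry a human synovial sarcoma fusion gene in the Rosa26 locus. The fusion is silent until Cre removes a stop cassette, and Cre protein (TATCre) was injected into the hindlimb of pups, so that it acts in whatever cells it reaches. The hSS2 mice express SS18::SSX2. The 13 control tumours have no targeted floxed gene in their labels, and the other hSS2 tumours carry floxed Pbrm1 (Pbrm1-fl, 8 libraries), Arid1a (Arid1a-fl, 8) or Arid1b (Arid1b-fl, 8), recombined by the same injection. The hSS1 mice express SS18::SSX1 and give 5 control and 4 Pbrm1-fl libraries. Each label holds a different number, read here as that of the mouse, and each library is taken as 1 tumour of 1 mouse. The labels give no age at collection and no measure of how much adjacent tissue was cut with a tumour. RNA came from whole tissue, so fewer cells of a type and less RNA per such cell cannot be told apart.

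Skeletal muscle fibres are long cells packed with sarcomeres, in which myosin motors pull on actin filaments while titin and nebulin set their length. Nerve impulses reach the sarcomere through calcium released from an internal store, and creatine kinase and glycogen breakdown supply the ATP. Around the fibres lie satellite cells, fibroblasts, tendon, fat, vessels, nerve and resident immune cells. Synovial sarcoma is a soft tissue cancer of the limbs whose fusion protein acts on BAF chromatin remodelling complexes, and it is composed of spindle or gland-like tumour cells.

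The ranking gene, the next most abundant fibre genes and a dividing-cell gene are shown first by their promoters. Between the 2 ends muscle genes went 1 way and most cell-cycle genes the other, although no mitosis, replication or histone gene passed outside the ends. The sequences are the 200 bases before the start of each gene in RefSeq (GRCm38.p6). They lie at chr2:76982548-76982747 (minus strand) for Ttn, chr8:123894776-123894975 (minus strand) for Acta1, chr11:67237612-67237811 (plus strand) for Myh4 and chr10:69352913-69353112 (minus strand) for Cdk1. Capitals mark matches, on either strand, to muscle motifs and to TATAAA, which is not specific to muscle, in the muscle genes. In Cdk1 they mark cell-cycle motifs. Other matches are in lower case, such as CCAAT in Ttn. In Ttn they mark a MEF2 site, in Acta1 a CArG box and TATAAA, in Myh4 a MEF2 site that overlaps a TATAAA on the other strand, then a CArG box, CAGCTG and TATAAA, and in Cdk1 the words CCAAT (read on the opposite strand) and TTTGAA.
Ttn promoter: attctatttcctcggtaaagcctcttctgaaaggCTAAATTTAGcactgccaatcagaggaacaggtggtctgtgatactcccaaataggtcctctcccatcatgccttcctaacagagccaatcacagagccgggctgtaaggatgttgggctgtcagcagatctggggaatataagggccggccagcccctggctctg
Acta1 promoter: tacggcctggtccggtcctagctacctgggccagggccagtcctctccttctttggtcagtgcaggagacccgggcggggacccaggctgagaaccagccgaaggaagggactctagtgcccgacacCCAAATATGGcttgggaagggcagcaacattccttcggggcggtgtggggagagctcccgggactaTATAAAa
Myh4 promoter: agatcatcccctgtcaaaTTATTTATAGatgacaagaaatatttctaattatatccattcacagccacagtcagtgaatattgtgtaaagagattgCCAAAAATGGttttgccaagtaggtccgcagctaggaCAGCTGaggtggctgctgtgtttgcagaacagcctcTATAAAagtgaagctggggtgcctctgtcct
Cdk1 promoter: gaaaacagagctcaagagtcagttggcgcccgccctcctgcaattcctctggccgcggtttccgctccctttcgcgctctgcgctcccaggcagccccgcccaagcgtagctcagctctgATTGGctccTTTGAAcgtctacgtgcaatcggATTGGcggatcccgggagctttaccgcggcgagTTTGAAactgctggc
A CArG box, the site named for serum response factor, was present in the 250 bases before the start of 7 of 49 sarcomere genes (14.3%) and of 1.62% of 27025 genes. A MEF2 site was present in 9 of 49 sarcomere genes (18.4%) and in 3.42% of all genes, and CAGCTG, an E-box, in 17 of 49 (34.7%) against 14.7%. TATAAA was present in 14 of 49 (28.6%) against 14.3%. Of 51 mitosis genes, 18 (35.3%) held TTTGAA, the letters of the cell-cycle homology region, against 18.3% of all genes, and 34 (66.7%) held CCAAT against 37.5%. These are matches of letters, not measured binding sites.

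The library totals were 10.6 to 18.9 M counts in the muscle-rich tumours and 13.5 to 21.3 M counts in the muscle-poor tumours. Targeted genes did not follow the labels in every library. The muscle-poor library labelled hSS2 control replicate 9 had Arid1a at 254 CPM, where Arid1a-fl libraries ranged from 239 to 287 CPM. Among the libraries labelled Arid1b-fl, replicates 2 (muscle-poor), 7 (muscle-rich) and 4 (neither end) had Arid1b at 285, 236 and 348 CPM, within the 230 to 678 CPM of the controls. Without control replicate 9 the genes that differed between the ends numbered 4503 in place of 4767, and without it and Arid1b-fl replicates 2 and 7 they numbered 3512 (2137 higher and 1375 lower). In the latter setting the fibroblast, adipocyte, macrophage and MHC class II counts stayed within 1.5 times of those given below, and counts above 2 genes that did not are given there.

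Ttn was 4.83 CPM in the lowest muscle-poor library, 9.87 at their median and 57.2 in the highest. In the muscle-rich libraries it was 9751 at the lowest, 16399 at the median and 47265 at the highest. A single gene thus took 0.975 to 4.73% of all counts at the muscle-rich end. At the upper boundary, Arid1b-fl replicate 7 with 9751 CPM was the last library inside and control replicate 8 with 8878 CPM the first outside. At the lower boundary, control replicate 3 with 57.2 CPM was the highest inside and Arid1a-fl replicate 3 with 73.8 CPM the nearest outside. Thus the upper boundary fell within a continuous run of libraries, and the 4 libraries with 36002 to 47265 CPM (control replicates 11 and 4, Arid1b-fl replicates 3 and 1) stood apart from the fifth, Pbrm1-fl replicate 1, at 20302.

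**Figure D1:**
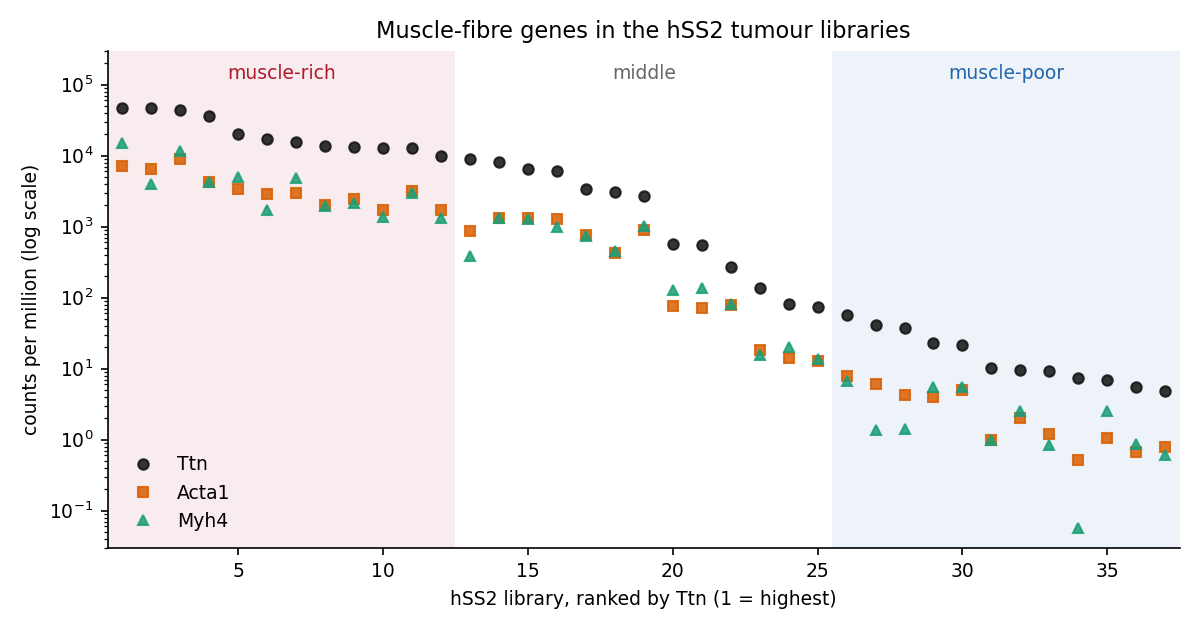
Levels of Ttn, Acta1 and Myh4 in the 37 hSS2 libraries, in CPM on a log axis, in order of Ttn from the highest at the left, with the 2 ends shaded. Ttn lies between 9751 and 47265 CPM in the 12 muscle-rich libraries and between 4.83 and 57.2 CPM in the 12 muscle-poor ones, and Acta1 and Myh4 run in parallel below it.

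Acta1 (skeletal alpha-actin) and Myh4 (the fastest adult myosin) are the other genes that mark the fibres. Acta1 was 0.514, 1.62 and 7.93 CPM in the muscle-poor libraries (lowest, median, highest) and 1691, 3039 and 8844 CPM in the muscle-rich ones. Myh4 was 0.0571, 1.39 and 6.75 CPM against 1309, 3467 and 15314 CPM. Neither gene overlapped between the ends. A ranking by Acta1 chose the same 12 and 12 libraries, and a ranking by Myh4 shared 11 of the 12 muscle-rich and all 12 muscle-poor libraries. Counts of sarcomere, excitation-contraction and muscle energy genes together made up 3.03 to 13.8% of a muscle-rich library and 0.315 to 0.427% of a muscle-poor one.

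Both ends held every genotype. The muscle-rich tumours were 5 control, 3 Pbrm1-fl, 3 Arid1b-fl and 1 Arid1a-fl, and the muscle-poor tumours were 3, 4, 3 and 2. The composition did not differ detectably (Fisher's exact test, two-sided, p = 0.891, n = 24). The numbers of the labels, read as mouse numbers, were grouped as below 1000, from 1000 to below 2000, and from 2000 up. They were spread 3, 5 and 4 at the muscle-rich end and 4, 3 and 5 at the muscle-poor end (Fisher's exact test, two-sided, p = 0.772, n = 24). With 12 libraries an end, neither test can see a modest imbalance. Of the 8 Arid1a-fl tumours, 5 fell between the ends.

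Genotype was kept as a term in the comparison of the ends. Of 18415 genes tested, 4767 (25.9%) differed at an adjusted p below 0.05 (edgeR quasi-likelihood test, Benjamini-Hochberg over all genes), 2502 (13.6%) higher and 2265 (12.3%) lower at the muscle-rich end. The median difference over all genes was −0.04 on the log2 scale. For 372 genes (2.02%) the 2 ends did not overlap. The 22 libraries outside both ends, 13 hSS2 and all 9 hSS1, gave the test. It fitted 1 slope on log2 Ttn, shared by all groups, with a separate level for each genotype group. The slope is reported as the log2 change per 10-fold more Ttn. The 13 hSS2 libraries held 1 Pbrm1-fl library, which its own group level fits, so it carries no information on the slope. There 201 of 23303 genes (0.863%) passed, 200 (0.858%) with a positive and 1 (0.00429%) with a negative slope. Slopes were positive for 46.6% of all genes tested. The members of each gene list are read against these shares. A scarce gene could enter the comparison of the ends through 1 end alone, which favours calls toward that end. Counts and medians at the ends therefore describe the genes tested and not whole lists.

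The contractile apparatus set the scale. Of 64 tested sarcomere genes, 63 were higher at the muscle-rich end, with a median difference of 8.34, and 56 did not overlap between the ends. Neb, the nebulin ruler of the thin filament, was 1.04 to 12.8 CPM in muscle-poor and 1859 to 7728 CPM in muscle-rich libraries. Myot, a Z-disc protein, reached at most 0.235 CPM at the muscle-poor end and at least 75.2 CPM at the muscle-rich end. In the 22 other libraries 56 of the 64 genes rose with Ttn, with a median slope of 2.69. Acta1 rose by 3.15 ± 0.16 (SE) per 10-fold Ttn (edgeR, adjusted p = 6.3e-10) and Neb by 3.2 ± 0.14.

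Genes of calcium handling and of the fuel supply followed. Of 37 excitation-contraction genes 31 were higher and none lower (median 4.26), and of 34 muscle energy genes 31 were higher and 1 lower (median 4.56). Atp2a1, the calcium pump of fast fibres, was at most 4.74 CPM in muscle-poor and at least 1136 CPM in muscle-rich libraries. Its widely expressed relative Atp2a2 was 241, 279 and 435 CPM against 208, 318 and 620 CPM, and these ranges overlapped. Pvalb, the calcium buffer parvalbumin of fast fibres, and Ckm, muscle creatine kinase, differed by 10.80 ± 0.75 and 10.80 ± 0.67. Aldoa, the aldolase that many cell types share, was higher by 2.0 ± 0.35, from a median of 526 to 1613 CPM. Outside both ends 18 of 38 and 16 of 35 genes of these lists rose with Ttn.

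Fast myosins made up most of the myosin message. Per kilobase of exon, the median level at the muscle-rich end was 576 CPM for Myh4, 168 for Myh1 and 32.1 for Myh2, the adult fast myosins, and 6.12 for Myh7, the slow myosin. The developmental myosins Myh8 and Myh3 had 2.16 and 1.64 CPM per kilobase. At the muscle-poor end the medians were 0.232 for Myh4, 0.0891 for Myh1 and at or near 0 for the other 4. Of the 9 hSS1 libraries, hSS1 control replicate 2 had another order, with 35.4 CPM per kilobase of Myh3, 31 of Myh8 and 12.7 of Myh7, and its Ttn was 3831 CPM.

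Satellite cell and junction genes moved in part. Of 24 tested progenitor genes 12 were higher and 2 lower (median 0.60), and of 24 junction and denervation genes 15 were higher and 2 lower (median 1.66). Des, the muscle intermediate filament, was 0.818 to 6.45 CPM in muscle-poor and 413 to 1229 CPM in muscle-rich libraries. Myog and Myf6, the transcription factors of late differentiation, had 3 counts each over the 12 muscle-poor libraries and 632 and 3432 counts over the 12 muscle-rich ones. Pax3, a factor of limb muscle precursors that was present in every tumour, went the other way, from 92.7, 241 and 387 CPM to 57.1, 135 and 203 CPM (difference −0.52 ± 0.19, adjusted p = 0.044), and the call was lost when any 1 of 15 libraries was left out. The abundant junction genes Utrn, Ncam1 and Agrn had overlapping ranges and differences of −0.03, 0.20 and −0.39. In the other libraries 8 genes of each list rose with Ttn, and 3 and 5 when hSS1 control replicate 2 was left out.

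**Figure D2:**
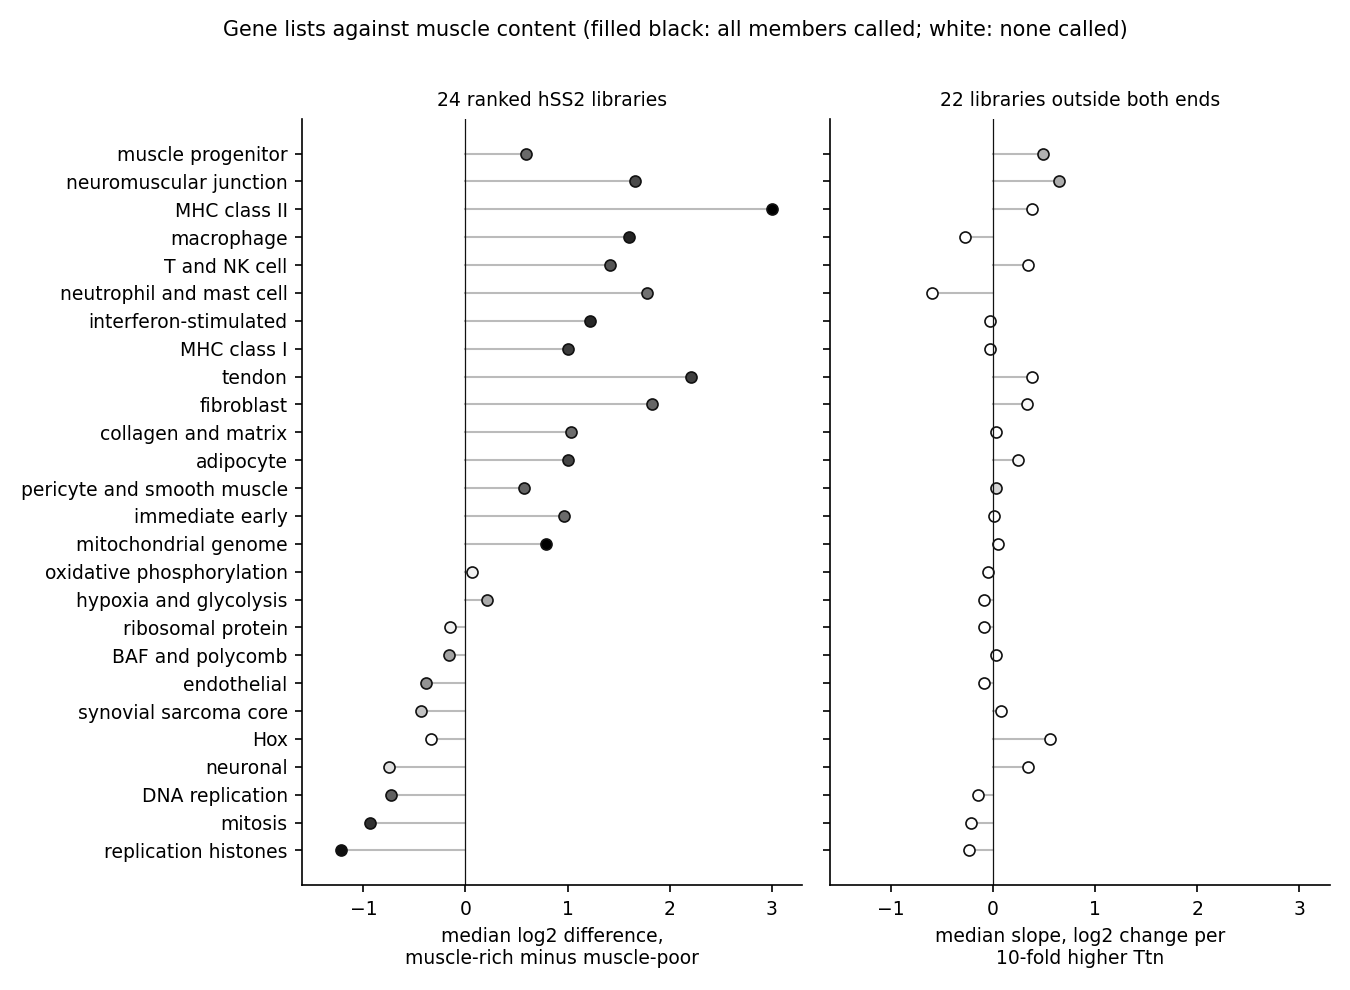
Median log2 difference between the muscle-rich and muscle-poor ends for 26 gene lists (left, 12 libraries an end), beside the median slope in log2 per 10-fold Ttn in the 22 other libraries (right); the darker a point, the larger the share of the list that was called. MHC class II lies at 3.01 on the left and 0.39 on the right, macrophage at 1.6 and −0.28, and replication histones at −1.22 and −0.24, with no immune or dividing-cell gene called on the right.

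Connective tissue genes were higher at the muscle-rich end. Of 40 fibroblast genes 24 were higher and none lower at the muscle-rich end (median 1.83). Of 15 listed tendon genes 12 were tested and 9 were higher (median 2.21). Of 40 collagen and matrix genes 22 were higher and 1 lower (median 1.03). Mean log2 CPM over the fibroblast list was 2.05, 3.17 and 4.21 in the muscle-poor libraries and 4.80, 5.55 and 6.17 in the muscle-rich ones. The 2 ranges did not overlap, nor did those of the tendon list (1.96 to 4.62 against 5.07 to 6.73) or of the collagen list (4.61 to 7.03 against 7.06 to 8.14).

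Pi16, which marks fibroblasts of the adventitia, was 0, 0.162 and 2.65 CPM in muscle-poor and 6.35, 14.8 and 44.9 CPM in muscle-rich libraries (difference 5.30 ± 0.65). C3, the central complement protein, differed by 6.02 ± 0.80 and Abca8a, a membrane transporter, by 4.95 ± 0.53. Thbs4 (thrombospondin 4) and Cilp (cartilage intermediate layer protein), both of tendon matrix, differed by 5.47 ± 0.51 and 5.38 ± 0.85. Of these 5 genes C3 alone overlapped between the ends, with a highest muscle-poor value of 25.2 CPM against a lowest muscle-rich value of 18.3 CPM.

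Bulk collagens differed less. Col1a1 was 89.6, 1470 and 5466 CPM in muscle-poor and 3051, 6666 and 12088 CPM in muscle-rich libraries (difference 2.16 ± 0.42), and Col3a1 differed by 1.44 ± 0.33. Both overlapped between the ends. Bgn, the small proteoglycan biglycan, was at most 120 CPM at one end and at least 125 CPM at the other. The most abundant genes on the fibroblast list did not separate: Pdgfra, the PDGF receptor of mesenchymal cells, was 316, 458 and 582 CPM against 240, 344 and 516 CPM (difference −0.20 ± 0.10), and Ebf1 had a difference of −0.06 ± 0.15. Pdgfra and Ebf1 were thus abundant in tumours with hardly any Pi16.

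Of 35 listed adipocyte genes 26 had enough counts to be tested. Of these 16 were higher and 3 lower at the muscle-rich end (median 1.01), which describes the genes tested only. Car3, the carbonic anhydrase abundant in fat and slow muscle, was 0.114, 2.40 and 80.3 CPM against 238, 616 and 1895 CPM. Plin4, a coat protein of lipid droplets, differed by 7.10 ± 0.55 and Cfd, the secreted protease adipsin, by 6.56 ± 0.88. Fasn, fatty acid synthase, was lower, with 220, 392 and 567 CPM against 185, 252 and 377 CPM (difference −0.44 ± 0.12). The muscle-rich and muscle-poor ranges of Fasn overlapped, whereas those of Car3 and Plin4 did not.

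Immune genes formed the other large group. Of 35 macrophage genes 30 were higher and none lower (median 1.6), of 9 MHC class II genes 9 (median 3.01), of 17 MHC class I genes 13 (median 1.00) and of 45 interferon-stimulated genes 38 (median 1.22). Csf1r, the growth factor receptor of macrophages, was 9.69, 24.5 and 67.5 CPM in muscle-poor and 42.5, 72.6 and 141 CPM in muscle-rich libraries (difference 1.56 ± 0.28). Lyz2, a lysozyme of myeloid cells, differed by 1.78 ± 0.37 and Ccr2, the receptor of recruited monocytes, by 3.87 ± 0.44. The ends overlapped for Csf1r and Lyz2 and not for Ccr2, which was at most 4.54 CPM at the muscle-poor end and at least 5.34 CPM at the muscle-rich end.

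Antigen presentation through MHC class II showed the largest median of the immune lists. H2-Ab1, a class II beta chain, was 8.88, 13.7 and 82.0 CPM in muscle-poor and 60.4, 139 and 323 CPM in muscle-rich libraries (difference 3.06 ± 0.36). Cd74, the invariant chain, was 30.2, 55.5 and 305 CPM against 199, 448 and 965 CPM, and Ciita, the master regulator of the class II genes, 0.919, 1.74 and 10.6 CPM against 5.66, 20.9 and 71.5 CPM. For all 3 genes the muscle-rich median lay above every muscle-poor value, although 1 or more muscle-poor libraries reached into the muscle-rich range.

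Interferon-induced chemokines were low in absolute terms. Cxcl9, which attracts T cells, had a median of 0.160 CPM at the muscle-poor and 3.45 CPM at the muscle-rich end (difference 4.51 ± 0.59), and Cxcl10 had 0.260 against 1.80 CPM. Abundant members differed little: Stat2, a signal carrier of type I interferon, was higher by 0.76 ± 0.17. T cell genes were scarce. Of 27 listed T and NK genes 9 had enough counts to be tested, and 6 of these were higher (median 1.41). A scarce gene could enter the test through the muscle-rich end alone, which favours genes that are higher there. The count of 6 therefore only describes the genes tested. Cd3e, a chain of the T cell receptor complex, had a median of 0.12 CPM against 1.56 CPM. Thy1, which T cells share with fibroblasts and neurons, was 5.45, 10.1 and 31.5 CPM against 16.9, 46.4 and 126 CPM. Of 21 listed neutrophil and mast cell genes 9 were tested, under the same limit, and 5 were higher. This count was between 1 and 8 when single libraries were left out, and 1 without control replicate 9 and Arid1b-fl replicates 2 and 7.

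**Figure D3:**
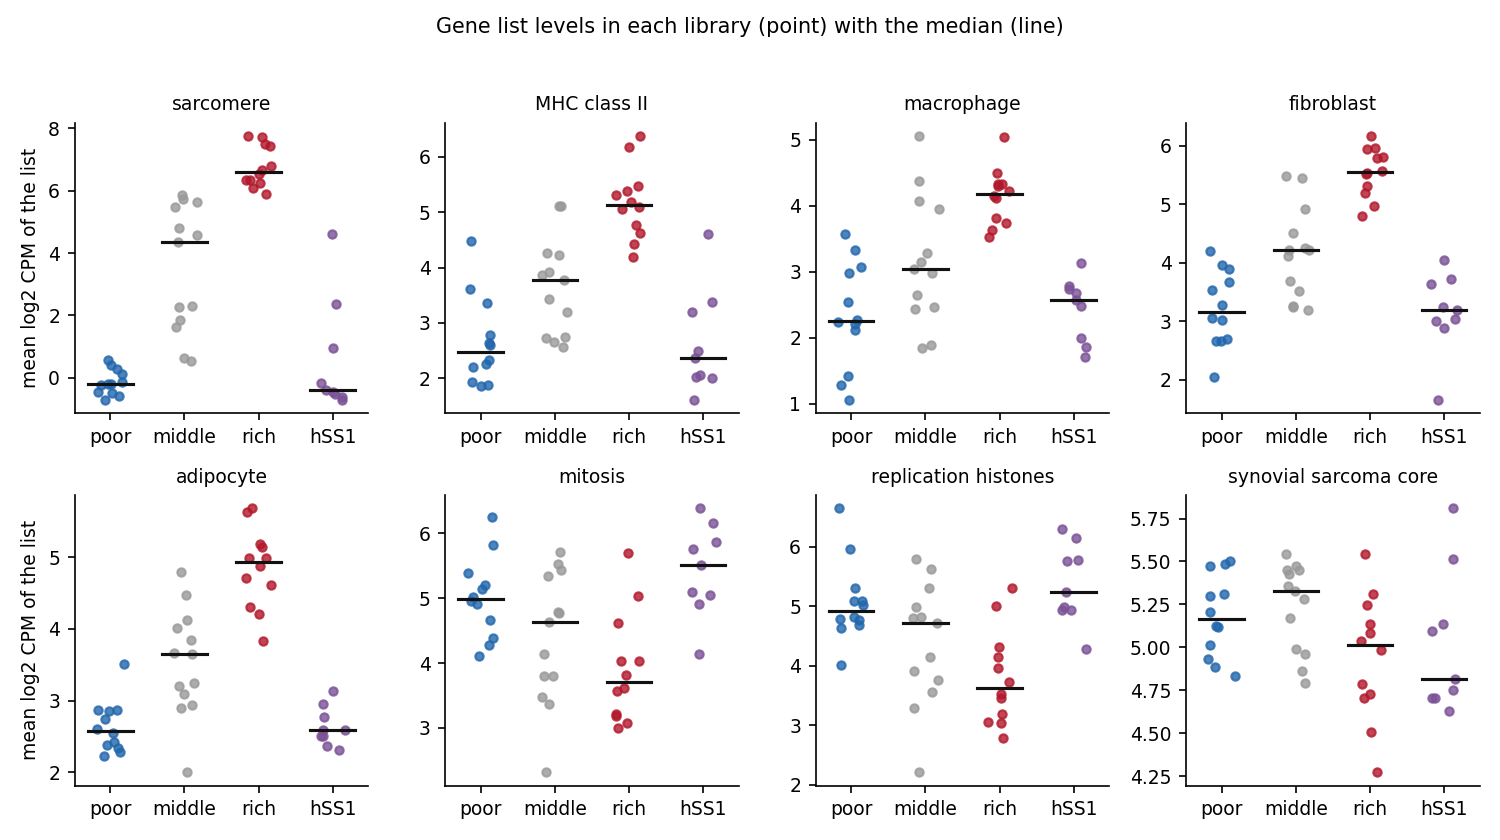
Mean log2 CPM of the genes of 8 lists in every library (points), grouped as muscle-poor (12), middle (13), muscle-rich (12) and hSS1 (9), with a line at the median of each group. The fibroblast list spans 2.05 to 4.21 at the muscle-poor and 4.80 to 6.17 at the muscle-rich end, whereas the mitosis list overlaps (4.12 to 6.26 against 3.0 to 5.70).

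The connective tissue, fat and immune counts held without the 4 libraries of highest Ttn. Fibroblast genes then numbered 22 higher, tendon 8, adipocyte 14, macrophage 28, MHC class II 8 and interferon-stimulated 33. Collagen and matrix genes fell from 22 to 14. Over all genes 1754 of 18993 were higher and 748 lower in that setting. Control tumours alone gave 5 against 3 libraries, and the 3 included control replicate 9, whose Arid1a was at the level of Arid1a-fl libraries. In that setting 10 fibroblast, 8 macrophage, 7 class II and 19 interferon-stimulated genes were higher. Of all genes 784 of 19640 were higher there. Since the same libraries were high in muscle, connective tissue, fat and immune genes, the shares of these in any one difference cannot be told apart.

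Vessels did not go 1 way. Of 33 endothelial genes 2 were higher and 12 lower (median −0.38), of 23 pericyte and smooth muscle genes 12 were higher and 2 lower (median 0.57). Cdh5, the cadherin of endothelial junctions, was 40.3, 108 and 238 CPM in muscle-poor and 24.1, 49.9 and 79.3 CPM in muscle-rich libraries (difference −1.10 ± 0.25). Gpihbp1, which holds lipoprotein lipase on capillaries, was lower by 1.83 on the log2 scale (−1.83 ± 0.42). The Notch ligand Dll4 of sprouting vessels and the endothelial receptor Notch4 differed by −1.28 ± 0.25 and −1.22 ± 0.27. Flt1, a VEGF receptor, went the other way (0.65 ± 0.16), from a median of 92.6 to 137 CPM. Without the 4 libraries of highest Ttn, 3 endothelial genes were lower, and 6 pericyte genes were higher. Without the 3 libraries whose targeted gene did not follow the label, 6 endothelial genes were lower.

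Lymphatic and nerve markers were few. Lyve1, a hyaluronan receptor of lymphatic vessels and some macrophages, had medians of 0.117 and 2.98 CPM (difference 4.29 ± 0.52), and Mmrn1 0.116 and 2.67 CPM (4.48 ± 0.44), while Prox1 and Reln, abundant in every tumour, did not differ by the threshold (−0.24 ± 0.28 and −0.39 ± 0.22). Scn7a, a sodium channel of Schwann cells, was 0, 0.842 and 6.13 CPM against 9.08, 18.5 and 74.2 CPM, with no overlap. Of 30 listed nerve genes 19 were tested, with 5 higher and 1 lower.

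Growth factor lists differed in how many genes were higher. Of 21 IGF genes 11 were higher and 1 lower (median 0.63), and of 47 TGF-beta and BMP genes 16 and 1 (median 0.36, with 8 higher without the 3 libraries whose targeted gene did not follow the label), where 13.6% of all genes were higher. Fgf6, a muscle-restricted fibroblast growth factor, had 0 counts in all 12 muscle-poor libraries and 723 over the 12 muscle-rich ones, at least 250-fold higher when the muscle-poor group is set to 3 counts. Fgf7 and Fgf2 differed by 3.45 ± 0.40 and 2.40 ± 0.36. Of 36 listed FGF genes 28 were tested, with 6 higher (3 without Pbrm1-fl replicate 1) and 8 lower. H19, the imprinted RNA of the Igf2 locus that is abundant in muscle, was 2.91, 6.6 and 22.8 CPM against 202, 603 and 1509 CPM. Igfbp6 differed by 3.72 ± 0.37, and Igf1 by −0.40 ± 0.21, which missed the threshold. Mstn, myostatin, the brake on muscle growth, had medians of 0.221 and 2.90 CPM.

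Mitochondrial message split by genome. All 13 genes of the mitochondrial genome were higher (median 0.79), for example mt-Co1 with 2378, 3385 and 4824 CPM against 3322, 5261 and 9743 CPM, whose ranges overlapped. In the libraries outside both ends none of the 13 passed (median slope 0.05). Of 74 nuclear oxidative phosphorylation genes 2 were higher and 2 lower (median 0.06, and −0.08 without the 4 libraries of highest Ttn). Atp5b, a subunit of ATP synthase, was 526, 664 and 1278 CPM against 419, 595 and 782 CPM. Acsl1, which activates fatty acids for oxidation or storage, was higher by 1.48 ± 0.20 with no overlap between the ends. Immediate early genes were higher for 17 of 31 (11 without control replicate 9 and Arid1b-fl replicates 2 and 7) and lower for 1 (median 0.97), among them Socs3 (1.77 ± 0.29) and Atf3 (2.34 ± 0.53). Hk2, the hexokinase of muscle and fat, differed by 3.06 ± 0.57 in a hypoxia and glycolysis list of which 10 of 33 genes were higher (4 without the 4 libraries of highest Ttn, and 6 without control replicate 9 and Arid1b-fl replicates 2 and 7).

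Genes of cell division were mostly lower at the muscle-rich end. Of 62 mitosis genes 50 were lower and none higher at the muscle-rich end (median −0.94), of 50 replication genes 31 (median −0.73), and of 31 replication-dependent histone genes 29 (median −1.22). Cdk1, the kinase that drives entry into mitosis, was 18.3, 33.4 and 94.7 CPM in muscle-poor and 5.42, 9.93 and 41.5 CPM in muscle-rich libraries (difference −1.21 ± 0.31). Mki67, the proliferation antigen Ki-67, was 178, 431 and 804 CPM against 94.6, 146 and 753 CPM (−0.93 ± 0.32), a call lost when any 1 of 8 libraries was left out. The ends overlapped widely for both. Hist1h1a, a linker histone made in S phase, was 29.9, 69.2 and 248 CPM against 5.92, 14 and 78.8 CPM (−1.53 ± 0.37).

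The counts of dividing-cell genes moved with the libraries used, and the medians moved less. Without the 4 libraries of highest Ttn, 1 of 62 mitosis genes, 4 of 50 replication genes and 9 of 31 histone genes were lower, with medians of −0.90, −0.64 and −1.135. Over all genes 748 of 18993 were lower in that setting. Among control tumours alone none passed, with medians of −0.66, −0.53 and −0.955, where 189 of 19640 genes were lower. Control replicate 9 was kept among the muscle-poor libraries of that setting. With 9 libraries an end, 2, 3 and 7 passed, where 946 of 18421 genes were lower. The mitosis share was thus below that of all genes without the 4 libraries and with 9 libraries an end. Without the 3 libraries whose targeted gene did not follow the label 13, 20 and 21 passed, where 1375 of 18516 genes were lower. Leaving out any 1 of 12 libraries took the mitosis count to between 19 and 33. They were control replicates 11, 4, 5 and 3, Arid1b-fl replicates 3, 6 and 7, Pbrm1-fl replicates 1, 6 and 8, and Arid1a-fl replicates 1 and 5. Single libraries at the muscle-rich end were as high as the muscle-poor median, for example 753 CPM of Mki67 against 431. Cyclin D1 (Ccnd1) and Cdk4, which drive the cycle in G1, were lower by −0.62 ± 0.17 and −0.66 ± 0.14 in a list of which 6 of 22 genes were lower and 1 higher.

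**Figure D4:**
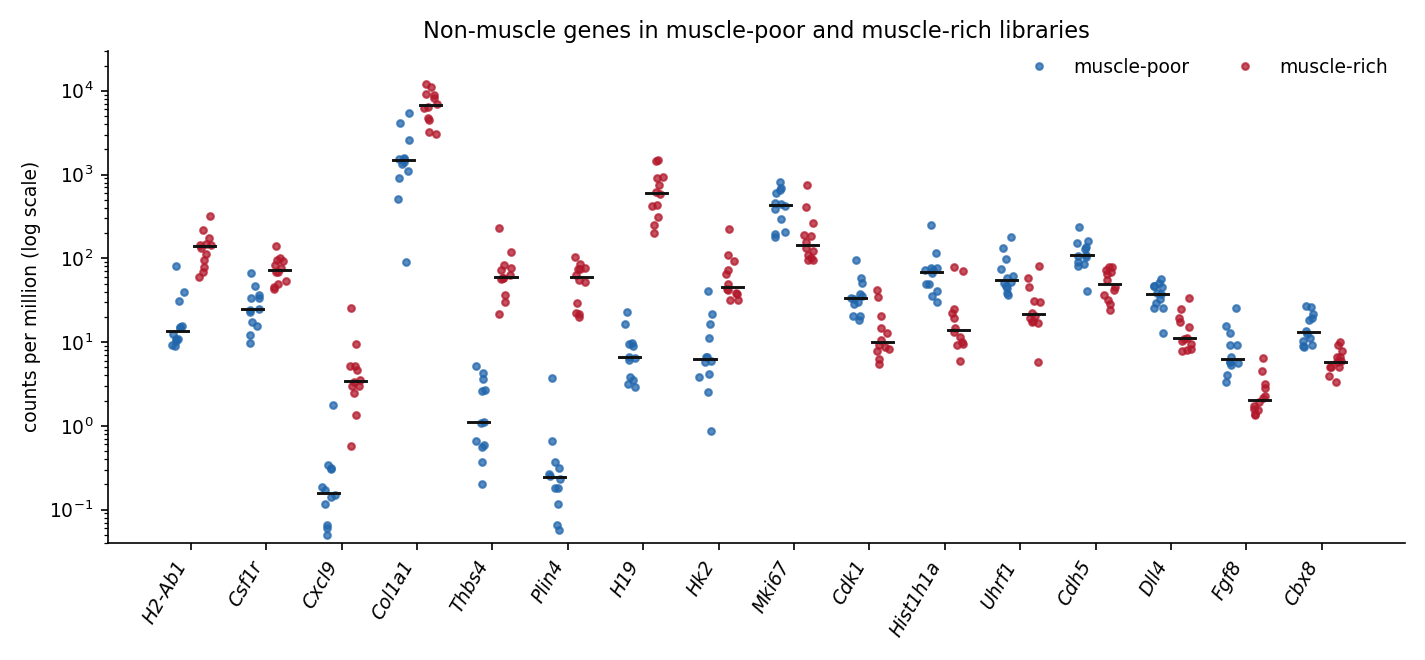
Levels of 16 genes in each of the 12 muscle-poor and 12 muscle-rich libraries, in CPM on a log axis with values of 0 drawn at 0.05 CPM, and a bar at the median. Thbs4, Plin4 and H19 do not overlap between the ends, whereas Mki67 (178 to 804 against 94.6 to 753 CPM) and Cdk1 (18.3 to 94.7 against 5.42 to 41.5 CPM) do.

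Genes of the tumour programme differed little and mostly downward. Of 38 synovial sarcoma genes 8 were lower and 1 higher (median −0.44), and 4 were lower without the 4 libraries of highest Ttn or without control replicate 9 and Arid1b-fl replicates 2 and 7. Tle1, a corepressor used as a diagnostic marker, was 184, 262 and 473 CPM against 217, 261 and 326 CPM (difference −0.00 ± 0.13). Fgf8, an embryonic fibroblast growth factor, was 3.35, 6.22 and 25.3 CPM against 1.36, 2.03 and 6.41 CPM (−1.64 ± 0.28). Zic2, a neural patterning factor, was lower by 0.75 on the log2 scale (−0.75 ± 0.25), and the call was lost without Arid1b-fl replicate 3, Pbrm1-fl replicate 1 or 2, or control replicate 3. Of 36 Hox genes none passed (edgeR, median −0.34, and −0.99 with 1 lower without the 4 libraries of highest Ttn). Of 25 neuronal genes 3 were lower, a share near the 12.3% of all genes. Rbfox3 (the nuclear antigen NeuN) was lower by −1.58 ± 0.39.

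The study's own gene categories, which it drew from single-cell data of stromal and sarcoma cells, were counted too. Of 181 genes that it classed as switched on in sarcoma (SAT), 27 were lower and 4 higher (median −0.31). Of 349 genes classed as active in both normal and tumour cells (MAT), 31 were higher and 22 lower (median 0.01). Of all genes 13.6% were higher and 12.3% lower, so the SAT and MAT counts lay near or below the shares of all genes. Without the 4 libraries of highest Ttn, 12 SAT genes were lower and 2 higher, and 18 MAT genes were higher and 5 lower. Without control replicate 9 and Arid1b-fl replicates 2 and 7, 16 SAT and 9 MAT genes were lower. Of 52 BAF and polycomb genes 17 were lower and 2 higher (median −0.17). Cbx8, a reader subunit of polycomb complex 1, was 8.75, 13 and 27.2 CPM against 3.29, 5.86 and 10.1 CPM (−1.17 ± 0.25), and Pcgf5, a ring-finger partner in such complexes, went the other way (1.26 ± 0.29). Without the same 4 libraries, 6 BAF and polycomb genes were lower.

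Among genes on no muscle list, the lower ones with the smallest adjusted p were Wdr6, Camkv, Magee2, Fgf8, Nat8f2, Abat, Scarna9 and Foxb1. Wdr6, a WD-repeat protein, was 225, 331 and 399 CPM in muscle-poor and 58.2, 145 and 205 CPM in muscle-rich libraries, with no overlap (difference −1.09 ± 0.15, adjusted p = 2.4e-05). Abat, which breaks down GABA, was lower by 1.05 on the log2 scale (−1.05 ± 0.18), and Foxb1, a forkhead factor of the embryonic brain, was lower by 1.07 (−1.07 ± 0.20). Their 8 higher counterparts were Ano5, Mypn, Mustn1, Klhl30, Asb5, Lrrc2, Eef1a2 and Abra, which are themselves known from striated muscle, for example Ano5, a membrane protein mutated in limb-girdle muscular dystrophy, and Mypn, a Z-disc protein.

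Lists near 0 gave no clear direction. Of 76 ribosomal protein genes 4 were lower and none higher (median −0.15), with 10 lower without Arid1a-fl replicate 4 and 0 without control replicate 9 and Arid1b-fl replicates 2 and 7. Of 26 unfolded protein response genes 6 were higher and 1 lower (median 0.12), of 54 Wnt genes 9 (5 without the same 3 libraries) and 4 (median 0.06), and of 40 citrate cycle and fatty acid oxidation genes 6 and 4 (median 0.12, and −0.02 without the 4 libraries of highest Ttn). Haemoglobin and other erythroid genes varied over a wide range at both ends, Hbb-bs from 13.5 to 1899 CPM in muscle-poor and from 14.1 to 577 CPM in muscle-rich libraries, and none of 6 passed. Other scalings shifted the median of all genes by less than 0.1.

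The 22 libraries outside both ends were then compared along Ttn. Their Ttn spanned 73.8 to 8878 CPM in the 13 middle hSS2 tumours and 3.21 to 3831 CPM in the 9 hSS1 tumours. Of the 200 genes that rose with Ttn, 102 were on the 5 muscle lists and 180 had also been higher at the muscle-rich end. Of 2355 genes that were higher at the muscle-rich end and on no muscle list, 65.4% had a positive slope and 84 passed. The muscle lists are not complete, so these genes include muscle genes such as Mypn and are not a count of non-muscle genes. Among all genes on no muscle list with a positive difference, 57.4% had a positive slope. Of 2260 genes that were lower, 79.7% had a negative slope, against 65.5% of all with a negative difference, and none passed.

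No gene of the immune lists passed in these libraries. Of 35 macrophage genes none passed, the median slope was −0.28, and 4 of the 35 sloped upward. The median was −0.36 in the 13 middle hSS2 libraries alone and −0.23 in the 9 hSS1 libraries alone. Csf1r had a slope of −0.24 and Lyz2 of −0.51. All 10 class II genes had a positive slope, with a median of 0.39, and none passed. Of 17 T and NK genes 13 had a positive slope (median 0.34), and of 45 interferon-stimulated genes 21 (median −0.03), with none past the threshold. Of all genes tested 46.6% had a positive slope, and the interferon-stimulated share lay near it. Whether these slopes differ from the relation at the ends was not tested.

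Connective tissue and fat genes gave single calls. Of 40 fibroblast genes 1 rose, Abca8a, by 1.78 ± 0.36 per 10-fold Ttn (edgeR, adjusted p = 0.017), and its call was lost when Arid1b-fl replicate 4 or 5 was left out. Of the list, 12 had an unadjusted p below 0.05 and a positive slope, as had 868 of all 23303 genes. Of 32 adipocyte genes 1 passed, Tmem45b, a membrane protein named here after its values were seen. Its adjusted p was 0.034, its level was at most 1.11 CPM, and without hSS1 control replicate 2 no adipocyte gene passed. On the list 10 had an unadjusted p below 0.05 and a positive slope, to be read against the same 868 of 23303. Car3, Plin4 and Cilp had slopes of 2.35, 1.94 and 2.01 with adjusted p of 0.18, 0.15 and 0.14. None of 40 collagen and matrix genes passed (median 0.03). Of 24 pericyte and smooth muscle genes 4 rose (median 0.03), where 0.858% of all genes did. Leaving out 1 library gave 2 to 4.

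Of the growth factor genes, H19 rose by 2.37 per 10-fold Ttn (adjusted p = 0.00011) and Fgf6 by 2.83 (adjusted p = 9.3e-05). Synpo2, an actin-bundling protein of smooth and striated muscle, and Itga7, the laminin receptor of muscle and pericytes, rose by 0.82 (adjusted p = 0.020) and 0.61 (adjusted p = 0.036), and their calls were lost when 1 of 5 and 1 of 12 single libraries was left out. Trp63, the transcription factor of basal epithelium, whose name also covers forms expressed in muscle, rose by 2.13 (adjusted p = 0.044), which 17 single exclusions removed. The positive slopes of smallest p on no muscle list were those of Mypn, Mlip, Klhl31, Apobec2, Alpk3, Hfe2, Trim72 and Crhr2. They ranged from 1.97 for Crhr2, a corticotropin-releasing hormone receptor, to 3.31 for Mlip, a lamin-binding protein of heart and muscle.

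Cell division showed no call. Of 62 mitosis, 50 replication and 31 histone genes none passed and none had an unadjusted p below 0.05 (edgeR quasi-likelihood test). The median slopes were −0.21, −0.15 and −0.24, and 1, 2 and 0 of the genes sloped upward. Mki67 had a slope of −0.22 and Cdk1 of −0.24. The only gene that fell with Ttn was Cxcl3, a neutrophil chemokine, by 3.39 per 10-fold (slope −3.39 ± 0.67, adjusted p = 0.020), with a median of 0 CPM and a highest value of 5.30 CPM. It was named after its value was seen, and no gene fell when Arid1b-fl replicate 4 or 5, Pbrm1-fl replicate 4, control replicate 1 or Arid1a-fl replicate 3 was left out. Hox genes all sloped upward (39 of 39, median 0.56), where 46.6% of all genes did. Of these, 9 had an unadjusted p below 0.05, against 868 positive slopes of all 23303 genes, and none passed the adjusted threshold. Their median slope was 0.02 in the 13 middle hSS2 libraries alone and 0.27 without hSS1 control replicate 2.

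Cells that Cre does not reach keep the targeted genes intact. The ranking did not use these genes, and they were compared with Ttn. The paper describes removal of a single exon of each, and counts here are over the whole gene. They can thus include message from recombined cells and do not measure unrecombined cells alone. Pbrm1, which encodes a bromodomain subunit of the PBAF complex, was 94.1, 99.5 and 134 CPM in the hSS2 Pbrm1-fl tumours and 180, 255 and 324 CPM in the controls. It was 97.1 to 104 CPM in the 4 muscle-poor and 94.1 to 134 CPM in the 3 muscle-rich Pbrm1-fl tumours, which overlapped. Arid1a, a DNA-binding subunit of canonical BAF, was 239, 253 and 287 CPM in Arid1a-fl and 254, 496 and 593 CPM in control tumours. Arid1b, its paralogue, was 110, 160 and 348 CPM in Arid1b-fl and 230, 319 and 678 CPM in control tumours.

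Across the 8 tumours of each floxed group the targeted gene did not follow Ttn detectably. The Arid1b-fl group included replicates 2, 4 and 7, whose Arid1b was within the range of the controls. Pearson's r between log2 levels was 0.49 for Pbrm1 (exact permutation p = 0.207, adjusted over 3 groups 0.622), −0.14 for Arid1a (exact p = 0.781, adjusted 0.781) and 0.27 for Arid1b (exact p = 0.495, adjusted 0.742). Spearman's rho was 0.31, −0.05 and 0.21 (exact p = 0.462, 0.935 and 0.619). Without the 2 libraries farthest from the median Ttn, r was 0.71, −0.29 and 0.55 (adjusted exact p = 0.267, 0.614 and 0.390). Ttn was spread unevenly within each group, and no correlation was computed within subsets of fewer than 6 tumours. Between the ends the 3 genes differed by −0.04 ± 0.08, 0.01 ± 0.14 and −0.04 ± 0.14 on the log2 scale.

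**Figure D5:**
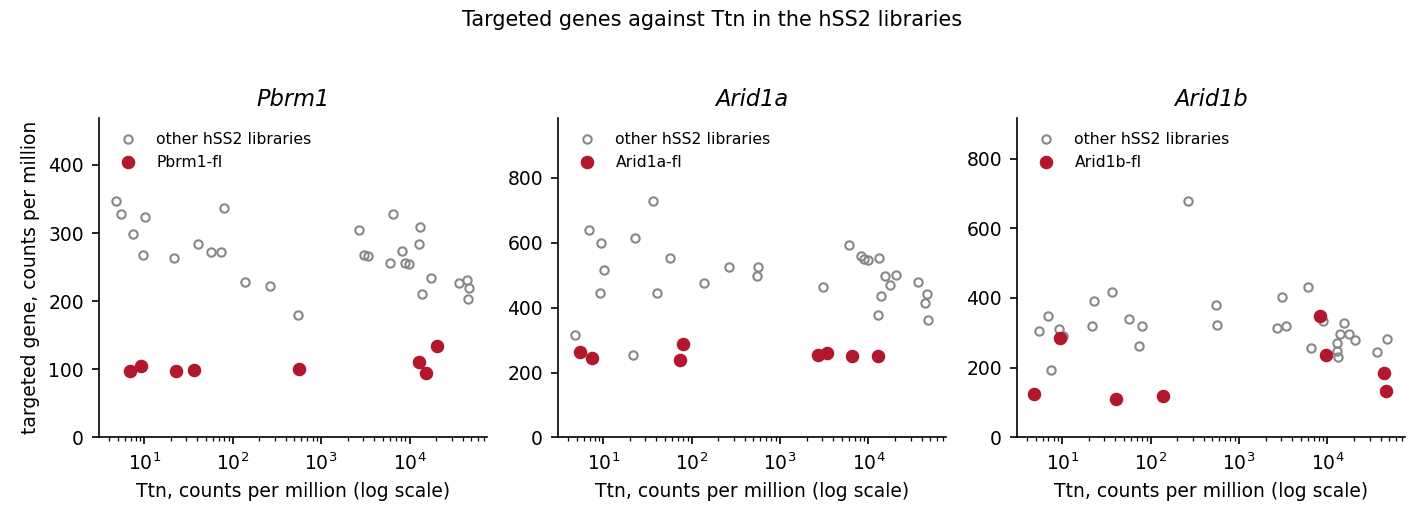
Level of the targeted gene against Ttn, in CPM (Ttn on a log axis), in the 8 tumours of each hSS2 floxed group (filled), with the other hSS2 libraries for reference (open). No group shows a clear slope, with r of 0.49 for Pbrm1, −0.14 for Arid1a and 0.27 for Arid1b.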

How the data were processed

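RNA from fresh frozen tumour tissue was depleted of ribosomal RNA and made into stranded libraries. Per the labels, the authors aligned reads with STAR 2.7.11 to mm10 and counted them per gene with featureCounts 1.6.3, and the deposited values are raw counts, in 1 table for hSS2 and 1 for hSS1. Totals ran from 10.1 to 21.3 M counts per library (M is 1e6). Genes with few counts are the least precise.

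CPM is the count divided by the library total, times 1e6. The ends were fitted with edgeR 4.0.16 (R 4.3.3, TMM, filterByExpr, robust quasi-likelihood test) on genotype and end, and the 22 other libraries on genotype group and centred log2 Ttn CPM (0.5 counts added), with Benjamini-Hochberg adjustment over all genes tested. For the ends the low-count filter was set by end, so a gene with enough counts at 1 end alone was tested. Mean log2 CPM of a list used a prior count of 2. The counting of the 2 tables was assumed alike, and 56854 genes were in both. DESeq2 1.42.0 and other scalings, filters and rankings were alternatives, some added after seeing the data. The scripts were tested on simulated data. No library pair of a group agreed within sampling noise (smallest chi-square per degree of freedom 18.6).

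The members, the gene lists (46) and the tests were chosen with earlier results of these data known. From each list, the 4 genes highest in CPM and the 3 that differed most (of those averaging 1 CPM or more) could be named. From genes on no muscle list, those with a log2 difference of 1 or more were ordered by adjusted p and the first 8 higher and 8 lower taken, and the first 8 of each sign for the slopes. Genes named after their values were seen are marked as such. Each library is taken as a separate tumour, so p-values measure the spread between tumours.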

Additional observations from a re-analysis of the deposited data

Results flagged for a closer look

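In 19 combinations of a group of 4 to 10 libraries and a gene, 8 held a library far from the others by Dixon's ratio of CPM. The cut-offs of this ratio assume normally spread values, and CPM of fibre genes is strongly skewed within a group. Ttn, Acta1 and Myh4 also run in parallel, and Ttn set the ranking. The 8 flags therefore describe single libraries and cannot be set against a rate by chance. In the hSS1 Pbrm1-fl tumours, replicate 4 stood apart in Ttn (110 CPM, with the next at 10.1), Acta1 (22.8 CPM) and Myh4 (23.9 CPM). In the hSS1 control tumours, replicate 2 stood apart in Ttn (3831 CPM, with the next at 584), and it also had the highest Myh3 (35.4 CPM per kilobase) of all 46 libraries. In hSS2 Arid1a-fl, replicate 5, the only muscle-rich tumour of its group, stood apart in Acta1 (3127 CPM) and Myh4 (2980 CPM). In hSS2 Arid1b-fl, replicate 1 stood apart in Myh4 (11518 CPM, with the next at 3954). In hSS2 Pbrm1-fl, replicate 1, a muscle-rich tumour, had the highest Pbrm1 (134 CPM, with the next at 110).

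A test of the difference in slope between the hSS1 and the 13 middle hSS2 libraries (edgeR, 23303 genes) found 2 genes. Cmya5, which encodes the sarcomere-associated protein myospryn, rose less in hSS1, by −2.17 per 10-fold Ttn (adjusted p = 0.017), with slopes of 2.78 in hSS2 and 0.63 in hSS1 when each was fitted alone. Fsd2, a related muscle protein, differed by −2.43 (adjusted p = 0.017). Without hSS1 control replicate 2 neither passed (adjusted p = 0.069 for both), while 1370 genes had an unadjusted p below 0.05 against 1596 with it.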

How the results depend on the processing

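The count of genes that differed between the ends was 4767. It moved to 2408 at an adjusted p below 0.01, to 3039 with 9 libraries an end (2093 higher and 946 lower), to 973 among control tumours only (784 and 189), and to 2502 without the 4 libraries of highest Ttn (1754 and 748, an exclusion added after seeing the data). Fewer libraries were tested in the last 3, and the control tumours included control replicate 9. The share of calls that were higher was 52.5% at first, 66.6, 68.9, 80.6 and 70.1% in these 4 settings, and 65.8% with no low-count filter. Leaving out 1 library gave 3853 to 5436 genes. The other alternatives gave 3512 to 5647, with 3512 (2137 higher and 1375 lower) without control replicate 9 and Arid1b-fl replicates 2 and 7, an exclusion also added later. The 201 genes that followed Ttn outside the ends became 13 in the 9 hSS1 libraries alone, where fewer libraries were tested. Other alternatives gave 152 to 290, and leaving out 1 library 160 to 239. Arid1a against Ttn in Arid1a-fl turned from r = −0.14 to 0.066 with CPM outside muscle-fibre genes (adjusted exact p = 0.886), and no correlation passed under any alternative. Fisher's exact p was 0.384 for genotype and 0.835 for mouse number range with 9 libraries an end. Over the named genes and all alternatives run, 11281 differences kept their direction and call, 584 lost a call and 158 gained one, and the slopes gave 9911, 78 and 32, with no called gene changing sign. Of list medians, 538 differences and 402 slopes stayed within 1 SD, and 60 and 12 moved. No paired analysis was possible because the labels give a number unique to each library, read here as that of the mouse, and no replicate number. The replicate numbers used here only name libraries. A count of 0 in a library limits a gene to the depth of that library.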
